A study of Homo sapiens with 24 samples.

Results

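The genes described here are 10 lineage factors and surface markers of mammary epithelium: TP63, SOX9, FOXC1, GATA3, EHF, EPCAM, CD24, MUC1, CD44 and PDPN. They were taken by symbol from a table of 59251 genes, and all 10 passed the filter on low counts that left 20820 genes for testing. Transcripts were counted in MCF10A cells, an established line of human breast epithelial cells. The labels name 2 derivatives, the MYC-transformed PM and the non-transformed PE, without saying how MYC was introduced or whether either is a single clone. Each line carried hairpin A against CHD1, hairpin B against CHD1 or a hairpin against GFP, the control. The 6 groups, each of 4 libraries labelled as biological replicates, were PM with hairpin A, PM with hairpin B, PM with the GFP hairpin, PE with hairpin A, PE with hairpin B and PE with the GFP hairpin. All cells, the GFP hairpin controls included, received doxycycline at 50 ng/ml for 72 h and grew with horse serum, EGF, hydrocortisone, cholera toxin and insulin. The labels do not say how the cultures were kept apart, so the p-values reflect library-to-library spread, which may be technical in part.

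The mammary epithelium has an outer basal layer, which contacts the basement membrane, and an inner luminal layer, which lines the ducts and makes milk. p63, encoded by TP63, maintains basal and stratified epithelia, while GATA3 is needed for luminal identity. Surface proteins such as EpCAM, CD24, CD44 and MUC1 are used with flow cytometry to separate luminal, basal and progenitor-like cells. CHD1, the target of the hairpins, is an ATP-dependent chromatin remodeller recruited to active promoters.

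The total count per library lay between 4.14 and 93.3 M with a median of 49.5 M. The shallowest was PE replicate 1 of the GFP hairpin, where 18380 genes had a count, the fewest of any library. PM replicate 4 of hairpin A, which was not shallow, had 19514 such genes, and PM replicate 3 of hairpin B had the most, 33137. CHD1 averaged 31.04, 29.5 and 90.0 CPM (counts scaled to library size with TMM factors) in PM with hairpin A, hairpin B and the GFP hairpin, and 29.2, 28.1 and 78.8 CPM in the same order in PE. MYC averaged 518 ± 27.4 CPM in PM with the GFP hairpin and 275 ± 17.7 CPM in PE with the GFP hairpin (SD, n = 4 each). The basal keratin KRT5 lay between 559 and 1624 CPM and the simple keratins KRT8 and KRT18 between 191 and 433 CPM over all libraries. Of the 9 luminal markers, KRT8 and KRT18 among them, KRT19, ESR1 and PGR stayed at or below 0.668 CPM, with no count in 12, 5 and 19 of the 24 libraries. FOXA1, another of the 9, had counts in every library, between 1.56 and 8.93 CPM. The lymphatic endothelial marker LYVE1 had no count in any library, and the leukocyte marker PTPRC had none in 17. The immune markers CD14 and CD68 had counts in every library, CD14 between 10.4 and 34.3 CPM and CD68 between 14.4 and 65.5 CPM.

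The clearest differences among the 10 genes were between the lines. EPCAM was 4.7-fold higher and PDPN 50.4-fold lower in PM than in PE with the GFP hairpin, and CD44 was 1.64-fold lower. Of the CHD1 hairpin effects, the one called under both hairpins in a line was a fall of EPCAM in PE. No gene was called under both hairpins in PM in the main fit, and 1, MUC1, was with the replicate number added as a block. MUC1 fell with hairpin A in PM, SOX9 rose there, TP63 was close to absent with hairpin B in PE, and CD44 moved in opposite directions with the 2 hairpins in PM.

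**Figure D1:**
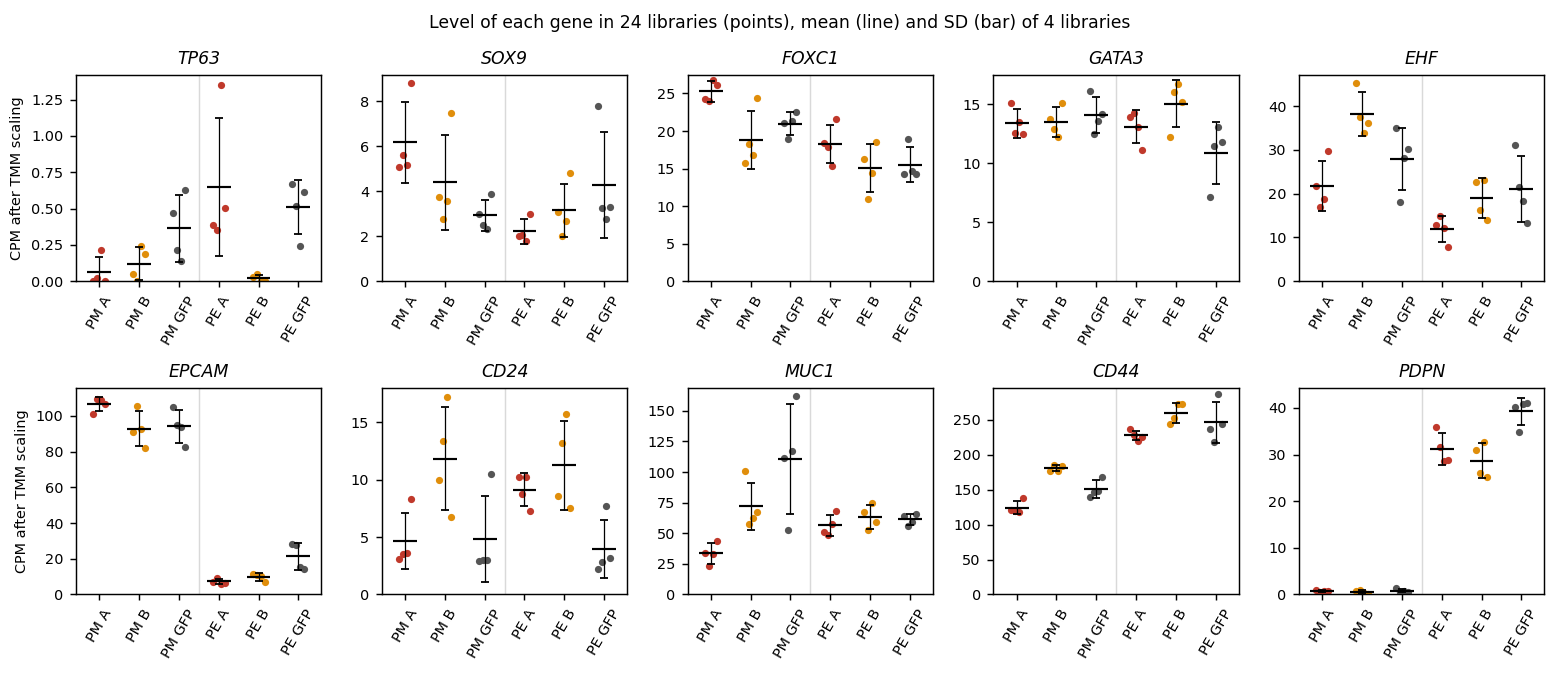
Each panel plots the CPM after TMM scaling (vertical axis, starting at 0) of 1 gene in the 6 groups named on the horizontal axis. Points are libraries, horizontal lines are means and bars are SDs of 4 libraries, with hairpin A in red, hairpin B in orange and the GFP hairpin in grey. EPCAM lies between 81.8 and 109.7 CPM in PM and between 6.08 and 28.3 CPM in PE, and PDPN lies at or below 1.41 CPM in every PM library.

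Levels of different genes were compared per kilobase of merged exons. In PM with the GFP hairpin the order was EPCAM with 37.4, MUC1 with 23.5, CD44 with 15.1, EHF with 6.35, FOXC1 with 5.35, GATA3 with 4.11, CD24 with 1.57, SOX9 with 0.742, PDPN with 0.223 and TP63 with 0.0486 CPM per kilobase. In PE with the GFP hairpin it was CD44 with 24.7, MUC1 with 13.0, PDPN with 10.6, EPCAM with 8.48, EHF with 4.79, FOXC1 with 3.96, GATA3 with 3.17, CD24 with 1.29, SOX9 with 1.09 and TP63 with 0.0684 CPM per kilobase. The order of EPCAM and PDPN relative to each other was therefore reversed between the lines, and the 5 transcription factors kept one order. These levels assume the annotated exons, since the transcripts used in these cells were not resolved.

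The comparison of the lines was made first with the GFP hairpin. There 5 of the 10 genes were called by edgeR's quasi-likelihood test at an adjusted p of 0.05, 3 higher and 2 lower in PM, beside 25.5% of all genes tested (14.1% higher and 11.4% lower). The median size of the log2 difference was 0.47 for the 10 genes and 0.32 for all genes.

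EPCAM (chr2:47345158-47387601, + strand, GENCODE v29 on GRCh38) encodes a homophilic adhesion molecule of simple epithelia. With the GFP hairpin it had 105, 94.7, 93.9 and 82.8 CPM in PM, against 28.3, 27.4, 15.2 and 14.5 CPM in PE. The lines did not overlap, and within PE the libraries fell into a higher and a lower pair. The log2 difference was 2.23 ± 0.20 (SE; edgeR adjusted p = 5.40e-08). PM libraries also lay above all PE libraries with hairpin A, by 3.89 ± 0.21 on the log2 scale (edgeR adjusted p = 6.38e-12), and with hairpin B, by 3.23 ± 0.20 (edgeR adjusted p = 1.77e-10). In bulk RNA, fewer cells that express a gene and less RNA per cell cannot be told apart, which holds for every level given here.

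PDPN (chr1:13583465-13617957, + strand) encodes podoplanin, a mucin-like membrane protein of lymphatic endothelium, fibroblasts and some basal epithelial cells. It had 1.41, 0.568, 0.805 and 0.529 CPM in PM with the GFP hairpin, against 40.3, 34.9, 40.7 and 41.2 CPM in PE. No PM library came near a PE library, and the log2 difference was −5.65 ± 0.27 (edgeR adjusted p = 1.13e-13). It was −5.42 ± 0.27 with hairpin A (edgeR adjusted p = 6.39e-14) and −5.85 ± 0.28 with hairpin B (edgeR adjusted p = 5.25e-14). Of the 2 lymphatic endothelial markers, PROX1 stayed at or below 0.234 CPM and LYVE1 at 0 in every library, PE included. Among the 7 fibroblast markers COL1A2 had no count in 20 libraries and COL3A1 in 16. The fibroblast markers summed to between 19.6 and 42.2 CPM in PM with the GFP hairpin and between 50.4 and 64.4 CPM in PE with the GFP hairpin, of which DCN made up means of 15.7 and 51.6 CPM. LUM went the other way, with means of 6.52 CPM in PM and 0.410 CPM in PE, and COL1A1 was level at 5.66 and 5.76 CPM. The 4 endothelial markers summed to between 0.431 and 1.93 CPM in PM and between 6.96 and 8.67 CPM in PE with the GFP hairpin, with CDH5 at 0 in all 4 of these PE libraries. The part of these markers in the difference in PDPN was not tested.

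CD44 (chr11:35138870-35232402, + strand) encodes the main receptor for the matrix polymer hyaluronan. It had 139.5, 147, 149 and 169 CPM in PM with the GFP hairpin, against 238, 218, 287 and 244 CPM in PE. The lines did not overlap under any hairpin, beside the shares of all genes given above. The log2 difference was −0.71 ± 0.07 with the GFP hairpin (edgeR adjusted p = 1.34e-09), −0.88 ± 0.07 with hairpin A (edgeR adjusted p = 2.42e-12) and −0.53 ± 0.07 with hairpin B (edgeR adjusted p = 2.79e-07). CD44 and PDPN were lower and EPCAM higher in PM under each hairpin, and these 9 calls held in all alternatives tried.

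MUC1 (chr1:155185824-155192916, − strand) encodes a transmembrane mucin of the luminal surface. With the GFP hairpin it had 111, 52.9, 117 and 162 CPM in PM, against 64.3, 56.1, 59.3 and 65.5 CPM in PE. One PM library lay below all 4 PE libraries, so the groups overlapped. The log2 difference was 0.86 ± 0.26 (edgeR adjusted p = 0.0208), and the adjusted p reached 0.129 over the alternatives, among them leaving out replicate 3 or 4 in PM or replicate 2 or 3 in PE, limma-voom and a fit of the compared groups alone. With hairpin A the sign was the other: MUC1 was lower in PM, by −0.75 ± 0.26 on the log2 scale (edgeR adjusted p = 0.027), which was lost without replicate 2 or 3 in PM or replicate 4 in PE (adjusted p up to 0.0869). With hairpin B the log2 difference was 0.18 with a 95% interval from −0.36 to 0.72 (edgeR adjusted p = 0.682).

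The transcription factors differed less between the lines. FOXC1 (chr6:1609972-1613897, + strand), a forkhead factor frequent in basal-like breast tumours, had 21.1, 18.9, 21.4 and 22.5 CPM in PM with the GFP hairpin, against 14.2, 18.9, 14.6 and 14.3 CPM in PE. Replicate 2 of each line met at the same level and the other libraries were apart, with a log2 difference of 0.43 ± 0.14 (edgeR adjusted p = 0.0204). That call was lost without any 1 of 3 PE libraries or 3 PM libraries, replicate 2 of each line being the exception (adjusted p up to 0.0734). EHF (chr11:34621093-34661057, + strand), an ETS factor of epithelial cells, did not pass with the GFP hairpin, with a log2 difference of 0.49 and a 95% interval from −0.07 to 1.05 (edgeR adjusted p = 0.209). GATA3, SOX9, TP63 and CD24 had log2 differences of 0.31, −0.40, −0.45 and 0.15 with the GFP hairpin and edgeR adjusted p-values of 0.0971, 0.425, 0.813 and 0.875.

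Under hairpin A, 8 of the 10 genes differed between PM and PE, 4 in each direction, beside 39.9% of all genes (20.1% higher and 19.8% lower). Beyond the surface genes above, SOX9 was higher in PM by 1.47 ± 0.31 on the log2 scale, EHF by 0.88 ± 0.26 and FOXC1 by 0.46 ± 0.13 (edgeR adjusted p = 0.000254, 0.0105 and 0.00535). Each had no overlap between the lines, as did 38.4% of all genes. The call of EHF was lost without replicate 4 of hairpin A in either line, where its adjusted p reached 0.0534. TP63 was lower in PM by −3.14 ± 1.07 (edgeR adjusted p = 0.0178), on 21 counts in 4 PM libraries and 104 in 4 PE libraries. Without replicate 3 in PE, or replicate 1 or 2 in PM, its adjusted p reached as much as 0.0894. Under hairpin B, 4 of the 10 genes differed, beside 30.1% of all genes. EHF was among them, higher in PM by 1.01 ± 0.25 (edgeR adjusted p = 0.00446). The 3 comparisons of the lines use separate libraries.

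**Figure D2:**
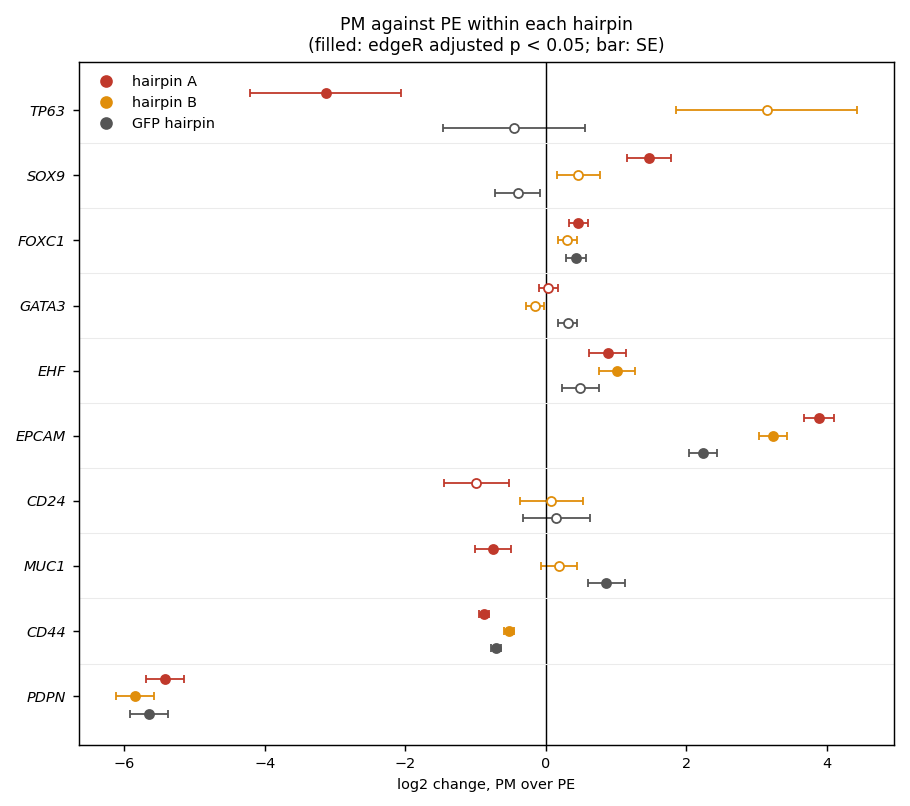
The log2 difference between PM and PE (horizontal axis, PM over PE) is plotted for each gene (vertical axis) within hairpin A (red), hairpin B (orange) and the GFP hairpin (grey). Bars are SEs and filled points passed the edgeR test at an adjusted p of 0.05. EPCAM lies between 2.23 and 3.89 and PDPN between −5.85 and −5.42 under the 3 hairpins, while MUC1 changes sides.

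The sequence before the first listed start of each gene was taken from the RefSeq table on GRCh38.p14, which held 8 of the 10 genes. The 250 bases before the start are shown for the 3 surface genes called between the lines that the table held, PDPN at chr1:13583507-13583756 on the + strand, CD44 at chr11:35138921-35139170 on the + strand and MUC1 at chr1:155192916-155193165 on the − strand. Each is written 5′ to 3′ along the gene, and capitals mark the TATA motif TATAAA on either strand, so that TTTATA is a match on the opposite strand.
PDPN: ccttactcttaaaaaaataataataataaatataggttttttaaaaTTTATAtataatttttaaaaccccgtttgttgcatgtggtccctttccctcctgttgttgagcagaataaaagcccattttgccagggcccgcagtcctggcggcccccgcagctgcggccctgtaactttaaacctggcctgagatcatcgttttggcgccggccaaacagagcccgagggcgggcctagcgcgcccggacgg
CD44: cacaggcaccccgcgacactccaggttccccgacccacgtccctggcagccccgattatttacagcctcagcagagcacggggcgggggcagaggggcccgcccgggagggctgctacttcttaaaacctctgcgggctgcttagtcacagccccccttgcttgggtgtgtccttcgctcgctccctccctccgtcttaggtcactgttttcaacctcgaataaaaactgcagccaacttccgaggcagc
MUC1: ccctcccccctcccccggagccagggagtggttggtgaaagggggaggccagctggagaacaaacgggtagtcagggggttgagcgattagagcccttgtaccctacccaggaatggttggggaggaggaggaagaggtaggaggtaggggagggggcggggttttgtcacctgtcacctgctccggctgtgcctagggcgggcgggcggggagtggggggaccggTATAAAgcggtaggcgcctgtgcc
The E-box CACGTG, which reads the same on both strands and is the sequence MYC and MAX are known to bind, was found in none of the 8 windows, beside 6.49% of 27305 promoters. TATAAA was found in the PDPN and MUC1 windows and in 11.1% of all promoters, and no motif matches overlapped. G and C made up 48.8% of the PDPN window, 62.4% of the CD44 window and 66.0% of the MUC1 window, against a median of 58.0% over all promoters. A gene can have other starts (PDPN has 3 and MUC1 has 2 in the table), and which start these cells used was not measured.

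The CHD1 hairpins were each compared with the GFP hairpin of the same line. Within a line both CHD1 hairpins were set against the same 4 GFP libraries, so their effects are not independent and are given side by side. Libraries did not overlap with those controls for 21.2% and 25.2% of all genes with hairpins A and B in PE, and for 29.1% and 28.9% in PM. Mitochondrial ribosomal RNA took between 0.415% and 0.567% of counts with CHD1 hairpins and between 0.216% and 0.341% with the GFP hairpin in PM. In PE it took between 0.374% and 0.586% with CHD1 hairpins and between 0.272% and 0.439% with the GFP hairpin. Its part in the hairpin effects below was not tested.

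In PE, hairpin A gave 1 call among the 10 genes, beside 20.2% of all genes, and hairpin B gave 4, beside 26.8%. The call shared by both hairpins was the fall of EPCAM, beside 5.58% of all genes called lower under both. In PM, hairpin A gave 3 calls, beside 27.8%, and hairpin B 2, beside 28.1%. Fitted with 1 mean per group, no gene passed under both hairpins in PM with edgeR, the DESeq2 Wald test or limma-voom, beside 13.3% of all genes with edgeR. At an unadjusted p under 0.05 there was 1, MUC1, which edgeR also called with the replicate number as a block. The counts of 1, 4, 3 and 2 of 10 lay on both sides of these backgrounds.

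**Figure D3:**
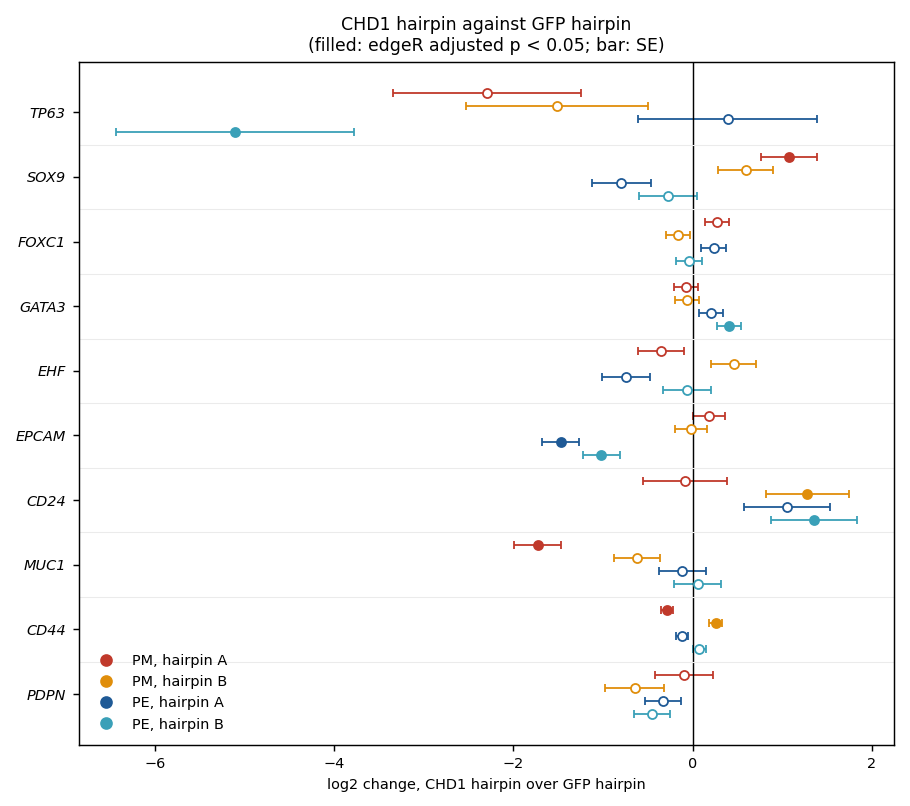
The log2 change of each gene (vertical axis) is plotted for each CHD1 hairpin over the GFP hairpin of its line (horizontal axis), with PM in red and orange and PE in dark and light blue. Bars are SEs and filled points passed the edgeR test at an adjusted p of 0.05. EPCAM lies at −1.47 and −1.02 in PE and at 0.18 and −0.02 in PM, and MUC1 lies at −1.73 with hairpin A in PM.

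TP63 (chr3:189631416-189897279, + strand) encodes p63 and was near the detection limit in every group. In PM it had 0, 0.0246, 0.216 and 0 CPM with hairpin A and 0.0519, 0, 0.243 and 0.188 CPM with hairpin B, against 0.468, 0.215, 0.136 and 0.630 CPM with the GFP hairpin. In PE it had 0.389, 0.352, 1.35 and 0.506 CPM with hairpin A and 0.0264, 0.0458, 0 and 0 CPM with hairpin B, against 0.668, 0.516, 0.244 and 0.612 CPM with the GFP hairpin. Hairpin B in PE was the group whose libraries all lay below those of its control, with 2 counts in all against 60. The ratio of these sums, scaled for depth, was 45.3-fold lower with hairpin B, with a 95% interval from 12.0 to 383-fold that covers counting error only. The edgeR adjusted p was 0.00327, and hairpin B in PE also lay below hairpin A in PE (2 against 104 counts; edgeR adjusted p = 0.00276). With hairpin A in PE the counts were 1.41-fold those of the GFP hairpin, and replicate 3 held 45 of its 104 counts (edgeR adjusted p = 0.853). In PM the counts were 2.93-fold lower with hairpin A and 2.35-fold lower with hairpin B, without passing the test (edgeR adjusted p = 0.107 and 0.305). Replicate 3 held 20 of the 21 counts with hairpin A in PM. Without it the fitted log2 change there was −4.89 instead of −2.29 (edgeR adjusted p = 0.00929), resting on 1 count.

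SOX9 (chr17:72121020-72126420, + strand), an HMG-box factor of luminal progenitor and stem-like cells, took opposite signs in the lines with hairpin A. The rise in PM was called and the fall in PE was not. In PM it had 5.08, 5.61, 5.14 and 8.83 CPM with hairpin A and 3.74, 2.76, 3.55 and 7.49 CPM with hairpin B, against 2.99, 2.51, 2.30 and 3.88 CPM with the GFP hairpin. All 4 libraries with hairpin A lay above the controls, with a log2 change of 1.08 ± 0.31 (edgeR adjusted p = 0.00786), while hairpin B overlapped them (0.59 ± 0.31, edgeR adjusted p = 0.165). In PE it had 2.00, 2.05, 1.77 and 3.00 CPM with hairpin A and 3.08, 2.02, 2.69 and 4.79 CPM with hairpin B, against 7.79, 3.25, 2.76 and 3.29 CPM with the GFP hairpin. The groups in PE overlapped, replicate 1 of the GFP hairpin stood far above the rest, and neither change passed (−0.80 and −0.27, edgeR adjusted p = 0.0874 and 0.611). The first passed in 4 of the 33 alternatives, with an adjusted p from 0.0152 with the replicate number as a block to 0.049 without replicate 4 of hairpin A. The difference between the lines in the effect of hairpin A was 1.87 ± 0.45 on the log2 scale (edgeR adjusted p = 0.0079). That difference ran from 1.33 to 2.08 over the alternatives, with an adjusted p up to 0.0453. In 5 of the 6 groups the highest SOX9 library was replicate 4.

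FOXC1 and GATA3 moved little with the CHD1 hairpins. FOXC1 in PM had 24.3, 24.0, 26.7 and 26.2 CPM with hairpin A, against 21.1, 18.9, 21.4 and 22.5 CPM with the GFP hairpin. These groups did not overlap, yet the log2 change of 0.27 did not pass (edgeR adjusted p = 0.142). The FOXC1 levels with hairpin B in PM ran from 15.7 to 24.4 CPM around those controls, and those in PE from 15.4 to 21.5 CPM with hairpin A and from 10.9 to 18.6 CPM with hairpin B, against 14.2 to 18.9 CPM with the GFP hairpin. GATA3 (chr10:8045378-8075203, + strand), the zinc finger factor of luminal cells, lay between 12.2 and 16.2 CPM in every PM library. In PE, GATA3 had 14.0, 14.3, 13.1 and 11.2 CPM with hairpin A and 12.2, 16.04, 16.7 and 15.2 CPM with hairpin B, against 7.12, 11.5, 13.1 and 11.8 CPM with the GFP hairpin. The rise with hairpin B, 0.41 ± 0.14 on the log2 scale, passed (edgeR adjusted p = 0.0234) although the groups overlapped. The call ended when the shallow library, with 32 counts of GATA3, was left out (adjusted p = 0.0676). It also ended without replicate 2 or 3 of hairpin B (adjusted p = 0.0541 and 0.0858), and with all libraries under limma-voom and in a fit of the compared groups alone (adjusted p = 0.0649 and 0.0511).

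EHF was not called with either hairpin in either line. In PM it had 21.7, 16.9, 18.8 and 29.8 CPM with hairpin A and 45.3, 37.6, 33.8 and 36.1 CPM with hairpin B, against 34.9, 18.1, 28.1 and 30.2 CPM with the GFP hairpin. Both hairpins overlapped the controls, with log2 changes of −0.35 and 0.46 (edgeR adjusted p = 0.352 and 0.202). In PE it had 12.8, 14.8, 12.2 and 7.75 CPM with hairpin A and 22.5, 16.2, 23.2 and 13.9 CPM with hairpin B, against 31.2, 21.4, 18.3 and 13.2 CPM with the GFP hairpin. The groups overlapped. The hairpin A change of −0.74 in PE had an edgeR adjusted p of 0.0614, which fell to 0.0241 when PE replicate 4 of the GFP hairpin was left out and to 0.0457 when PM replicate 2 of it was.

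EPCAM fell with both hairpins in PE and was not called in PM. In PE it had 7.10, 9.11, 6.08 and 6.65 CPM with hairpin A and 11.7, 11.04, 10.5 and 6.69 CPM with hairpin B, against the 14.5 to 28.3 CPM of the GFP hairpin. All 8 libraries with a CHD1 hairpin lay below all 4 controls. The log2 changes were −1.47 ± 0.21 with hairpin A and −1.02 ± 0.21 with hairpin B (edgeR adjusted p = 3.15e-05 and 0.000747), which are 2.77-fold and 2.03-fold lower levels. In PM it had 101, 109.7, 109 and 107 CPM with hairpin A and 91.3, 105.5, 92.6 and 81.8 CPM with hairpin B, against 82.8 to 105 CPM with the GFP hairpin. The PM groups overlapped, and the 95% intervals of the log2 change ran from −0.20 to 0.56 with hairpin A and from −0.40 to 0.36 with hairpin B. The effect of hairpin A differed between the lines by 1.65 ± 0.28 (edgeR adjusted p = 0.000941), and that of hairpin B by 1.00 ± 0.27 (edgeR adjusted p = 0.061, which was 0.0273 and 0.0169 when PE replicate 3 or 4 of the control was left out).

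CD24 (chr6:106969831-106975627, − strand) encodes a small glycosylphosphatidylinositol-anchored protein. In PM it had 3.11, 3.57, 3.57 and 8.31 CPM with hairpin A and 9.96, 13.4, 17.2 and 6.74 CPM with hairpin B, against 2.88, 3.00, 3.03 and 10.5 CPM with the GFP hairpin. In PE it had 10.2, 8.79, 10.2 and 7.29 CPM with hairpin A and 8.56, 13.2, 15.7 and 7.54 CPM with hairpin B, against 2.23, 2.79, 7.74 and 3.22 CPM with the GFP hairpin. In both control groups 3 libraries lay near 3 CPM and 1 stood apart among the CHD1 hairpin levels, so no CHD1 hairpin group was free of overlap. Hairpin B passed in PM, by 1.28 ± 0.46 on the log2 scale, and in PE, by 1.36 ± 0.48 (edgeR adjusted p = 0.0445 and 0.0425). Hairpin A did not pass, at −0.08 ± 0.47 in PM and 1.06 ± 0.48 in PE (edgeR adjusted p = 0.933 and 0.141), although with the high PE control, replicate 3, left out its adjusted p there was 0.0359. Over the alternatives the adjusted p of hairpin B ran from 0.00125 to 0.145 in PM and from 0.00869 to 0.125 in PE, and leaving out any of replicates 1, 2 and 3 of hairpin B or of the GFP hairpin ended the call in PM, as did 5 PE libraries (replicates 1 to 3 of hairpin A, 1 of hairpin B and 4 of the GFP hairpin). In PE leaving out replicate 2 or 3 of hairpin B, or replicate 1, 2 or 4 of the GFP hairpin, or replicate 1 of hairpin B in PM, ended it. With all libraries kept, the PM call was also lost with no filter and in a fit of the compared groups alone (adjusted p = 0.0798 and 0.124), and the PE call with no filter and with limma-voom (adjusted p = 0.0776 and 0.0936). CD24 has near-identical processed copies, of which CD24P4 had between 0 and 1.93 CPM, so its counts depend on how reads with several matches were counted, which is not given in the sources used here.

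MUC1 fell with hairpin A in PM. It had 34.2, 23.0, 32.9 and 43.9 CPM with hairpin A and 101, 57.1, 62.8 and 67.1 CPM with hairpin B, against 111, 52.9, 117 and 162 CPM with the GFP hairpin. All libraries with hairpin A lay below all controls, with a log2 change of −1.73 ± 0.27 (edgeR adjusted p = 5.2e-05). Hairpin B overlapped the controls, at −0.62 ± 0.26 (edgeR adjusted p = 0.0809). Its change passed without the lowest control, replicate 2, or replicate 1 of hairpin B (adjusted p = 0.00525 and 0.0288), and with the replicate number as a block (adjusted p = 0.0389). In PE the levels were 51.0, 48.8, 57.9 and 67.8 CPM with hairpin A and 67.0, 52.6, 75.1 and 58.9 CPM with hairpin B, against 64.3, 56.1, 59.3 and 65.5 CPM with the GFP hairpin. The PE groups overlapped, and the 95% intervals of the log2 change ran from −0.67 to 0.44 with hairpin A and from −0.50 to 0.61 with hairpin B. The effect of hairpin A differed between the lines by −1.61 ± 0.37 (edgeR adjusted p = 0.0115). The exons of MUC1 share 1.02% of their bases with AL713999.1 on the same strand.

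CD44 moved both ways in PM. It had 121, 119, 118 and 138 CPM with hairpin A and 177, 186, 176 and 184 CPM with hairpin B, against 139.5, 147, 149 and 169 CPM with the GFP hairpin. The 3 groups of 4 libraries did not overlap, with hairpin A lowest and hairpin B highest. The log2 changes were −0.28 ± 0.07 with hairpin A and 0.26 ± 0.07 with hairpin B (edgeR adjusted p = 0.00207 and 0.00482), so both changes were small. In PE it lay between 220.3 and 237 CPM with hairpin A and between 244 and 273 CPM with hairpin B, against 218 to 287 CPM with the GFP hairpin, and neither change passed (edgeR adjusted p = 0.284 and 0.485). The exons of CD44 share 0.84% of their bases with CD44-AS1 on the opposite strand, and the strand setting of the counting is not given in the sources used here.

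PDPN was not called with either hairpin. In PE it had 35.9, 31.5, 28.6 and 28.9 CPM with hairpin A and 30.99, 26.1, 32.7 and 25.1 CPM with hairpin B, against 40.3, 34.9, 40.7 and 41.2 CPM with the GFP hairpin. Every library with hairpin B lay below the controls, as did 3 of the 4 with hairpin A. The log2 changes were −0.33 ± 0.20 and −0.45 ± 0.20 (edgeR adjusted p = 0.295 and 0.109). The hairpin A change passed under 2 of the 33 alternatives, limma-voom and a fit of the compared groups alone (adjusted p = 0.0142 and 0.0132). The hairpin B change passed under 5, among them these 2 (adjusted p = 0.00059 and 0.00463) and leaving out replicate 4 of hairpin B in PM (adjusted p = 0.0269). In PM its levels lay between 0.590 and 0.983 CPM with hairpin A and between 0.125 and 0.888 CPM with hairpin B, against 0.529 to 1.41 CPM with the GFP hairpin.

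The hairpins themselves were then compared. In PM hairpin B differed from hairpin A in 5 of the 10 genes, 4 higher and 1 lower, beside 26.3% of all genes (12.7% higher and 13.5% lower). EHF, CD44 and MUC1 did not overlap between the hairpins and were higher with hairpin B, by 0.82 ± 0.25, 0.54 ± 0.07 and 1.11 ± 0.26 on the log2 scale (edgeR adjusted p = 0.0217, 3.05e-07 and 0.00359). Of all genes, 26.2% did not overlap in this comparison. CD24 was higher by 1.36 ± 0.46 and FOXC1 lower by −0.43 ± 0.13 with hairpin B, both with overlap (edgeR adjusted p = 0.0362 and 0.0143). The call of EHF was lost without replicate 2 or 3 of hairpin A or replicate 1 of hairpin B (adjusted p up to 0.0751). That of FOXC1 was lost without replicate 1 or 3 of hairpin B (up to 0.0725), and that of CD24 with no filter on low counts (0.0653) or without any of replicates 1 to 3 of hairpin A or replicate 2 or 3 of hairpin B (up to 0.121). In PE 1 of the 10 genes differed, TP63 above, beside 16.6% of all genes. There CD44 did not overlap, as was so for 20.6% of all genes. Its log2 difference was 0.19 ± 0.07 with an edgeR adjusted p of 0.0545, which was under 0.05 in 24 of the 33 alternatives.

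The difference between the lines in the effect of a hairpin was tested for each gene. With hairpin A it passed for SOX9, EPCAM and MUC1, beside 6.66% of all genes, and all 3 calls held in every alternative. With hairpin B it passed for none in the main edgeR fit, beside 2.45% of all genes. At an unadjusted p under 0.05 there were 3 (TP63, GATA3 and EPCAM), and the DESeq2 Wald test and limma-voom each called 1, EPCAM. EPCAM also passed in edgeR with the replicate block or a filter of 5 CPM in 4 libraries (adjusted p = 0.00736 and 0.0412). The median size of this difference with hairpin A was 0.76 on the log2 scale for the 10 genes and 0.31 for all genes.

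Genes related to the 10 by family, pathway or cell layer were counted from lists written down with earlier results of these data known. Epithelial identity factors, the transcription factors and their targets that hold cells in an epithelial state, were counted lower under both hairpins in PE for 9 of 17 tested and higher for 0. Their median log2 change was −1.22, against −0.003 over all 20820 genes, of which 12.3% were called under both hairpins in either direction. MAL2, a membrane protein of apical transport, averaged 13.1 CPM with hairpin A and 0.982 CPM with hairpin B, against 43.9 CPM with the GFP hairpin in PE. ZNF750, an epidermal differentiation factor, had no count with either CHD1 hairpin in PE and 158 counts with the GFP hairpin (edgeR adjusted p of the weaker hairpin 0.00876). Against a floor of 3 counts over the group, the summed counts were at least 64.7-fold lower with hairpin A and 79.5-fold lower with hairpin B. These bounds leave out the spread between libraries. In PM 1 member of this list rose and 3 fell under both hairpins, with a median of −0.17. The one that rose was GRHL3, with 2.90 and 3.91 CPM against 0.836 CPM. With the GFP hairpin, 9 of the 17 were higher and 4 lower in PM than in PE (median 0.91, against 0.02 for all genes). The largest of these differences was in GRHL3, which was lower in PM, at −2.61 ± 0.39 on the log2 scale (edgeR adjusted p = 7.45e-06). MARVELD3, a tight junction protein, was higher by 2.13 ± 0.34 (edgeR adjusted p = 7.78e-06). EPCAM, described above, had the signs of the list medians, falling in PE and being higher in PM.

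Over all 20820 genes, 25.5% were called between the lines with the GFP hairpin, and 13.3% in PM and 12.3% in PE under both CHD1 hairpins, with medians of 0.02, −0.006 and −0.003 on the log2 scale. Each list count below is to be read beside these shares, and several lie near them. Of 25 basal genes tested, 12 were lower and 1 higher in PM than in PE with the GFP hairpin, with a median log2 difference of −0.45. KRT14, the keratin partner of KRT5, averaged 5.59 CPM in PM and 39.4 CPM in PE with the GFP hairpin (edgeR adjusted p = 5.87e-05). Under both CHD1 hairpins 3 basal genes rose and 7 fell in PM, and 4 rose and 6 fell in PE, with medians of −0.008 and −0.25. LAMB3, a chain of the basement membrane protein laminin-332, averaged 229 CPM with hairpin A and 335 CPM with hairpin B, against 1202 CPM with the GFP hairpin in PM. MYLK, the myosin light chain kinase of contractile cells, was among those that rose, with 2.36 and 10.02 CPM against 1.02 CPM in PM. Of 22 luminal genes, 5 were higher and 3 lower in PM than in PE with the GFP hairpin, with 0 higher and 3 lower under both CHD1 hairpins in PM, a share close to that of all genes, and 2 higher and 6 lower in PE. LCN2, a secreted iron-siderophore binding protein, was lower under both hairpins in both lines, averaging 0.339 and 0.415 CPM against 2.87 CPM in PM and 0.313 and 0.160 CPM against 2.80 CPM in PE.

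Among 22 genes known as p63 targets in stratified epithelium, 1 rose and 8 fell under both hairpins in PE, with a median of −0.43. In PM 2 rose and 3 fell, with a median of 0.04. LAMA3, another chain of laminin-332, fell in both lines, averaging 62.4 and 72.6 CPM against 114 CPM in PM. The list overlaps the basal list and shares KRT14, whose level over the 24 libraries was the most like that of TP63 (below). With the GFP hairpin 3 of these targets were higher and 8 lower in PM than in PE. Among 24 Notch pathway genes 4 rose and 3 fell under both hairpins in PM, and 2 rose and 2 fell in PE, beside 13.3% and 12.3% of all genes called in either direction. The target gene HES2 averaged 8.99 and 5.59 CPM against 0.985 CPM in PM (edgeR adjusted p of the weaker hairpin 9.92e-08), and the receptor NOTCH1 68.3 and 94.4 CPM against 54.8 CPM in PE. With the GFP hairpin 3 Notch genes were higher and 8 lower in PM than in PE, LFNG, a glycosyltransferase that modifies Notch receptors, among the lower ones at −1.32 on the log2 scale (edgeR adjusted p = 0.00225).

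Of 21 genes of hyaluronan and of membrane linkers of CD44 and podoplanin, 9 were lower and 1 higher in PM than in PE with the GFP hairpin, with a median of −0.23. MMP14, a membrane protease known to cleave CD44, averaged 13.1 CPM in PM and 87.9 CPM in PE with the GFP hairpin (log2 difference −2.74 ± 0.14; edgeR adjusted p = 1.71e-13). CEMIP2, a cell surface protein of hyaluronan breakdown, rose under both CHD1 hairpins, with 32.8 and 53.8 CPM against 24.0 CPM in PM and 113 and 131 CPM against 42.6 CPM in PE. HMMR, another hyaluronan-binding protein, fell under both, with 64.7 and 55.2 CPM against 93.3 CPM in PM and 67.0 and 61.4 CPM against 96.4 CPM in PE. In all 1 of this list rose and 3 fell in PM, and 2 rose and 4 fell in PE.

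Of 15 relatives and partners of EPCAM, CD24 and MUC1, 4 were higher and 3 lower in PM than in PE with the GFP hairpin. Those higher included CLDN7, a claudin that binds EpCAM, with 46.6 CPM in PM and 16.2 CPM in PE (edgeR adjusted p = 3.07e-06). ST14 and SPINT2, the protease matriptase and its inhibitor, fell under both hairpins in PE, ST14 with 30.7 and 37.2 CPM against 79.1 CPM and SPINT2 with 54.2 and 69.3 CPM against 104.8 CPM. In all 1 of the 15 rose and 2 fell under both hairpins in each line. LGALS3, a galectin that binds MUC1, was the one that rose, by means of 0.45 on the log2 scale in each line.

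Of 22 relatives of the lineage transcription factors, 4 rose and 1 fell under both hairpins in PM, and 2 rose and 5 fell in PE. TP73, the p63 relative, averaged 2.59 and 5.74 CPM against 0.910 CPM in PM, where TP63 itself did not pass. GATA2 rose in both lines, with 9.31 and 10.2 CPM against 6.54 CPM in PM and 6.02 and 7.77 CPM against 3.11 CPM in PE. ELF3, an ETS factor related to EHF, fell under both hairpins in PE, with 0.202 and 0.0651 CPM against 1.03 CPM. With the GFP hairpin 4 relatives were higher and 7 lower in PM than in PE, FOXF1, a mesenchymal forkhead factor, with 0.562 CPM in PM and 4.36 CPM in PE (edgeR adjusted p = 3.28e-09). Of 10 fibroblast and endothelial markers tested, 1 was higher and 3 lower in PM than in PE with the GFP hairpin. The higher one was LUM, and PECAM1 was among the lower ones with 0.895 CPM in PM and 7.60 CPM in PE. COL1A1 rose under both hairpins in PM, with 10.1 and 13.1 CPM against 5.66 CPM. Of 4 immune markers tested, 1 was lower in PM than in PE with the GFP hairpin, beside 25.5% of all genes called in either direction. Under both hairpins 1 fell in each line, beside 13.3% of all genes called in PM and 12.3% in PE.

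**Figure D4:**
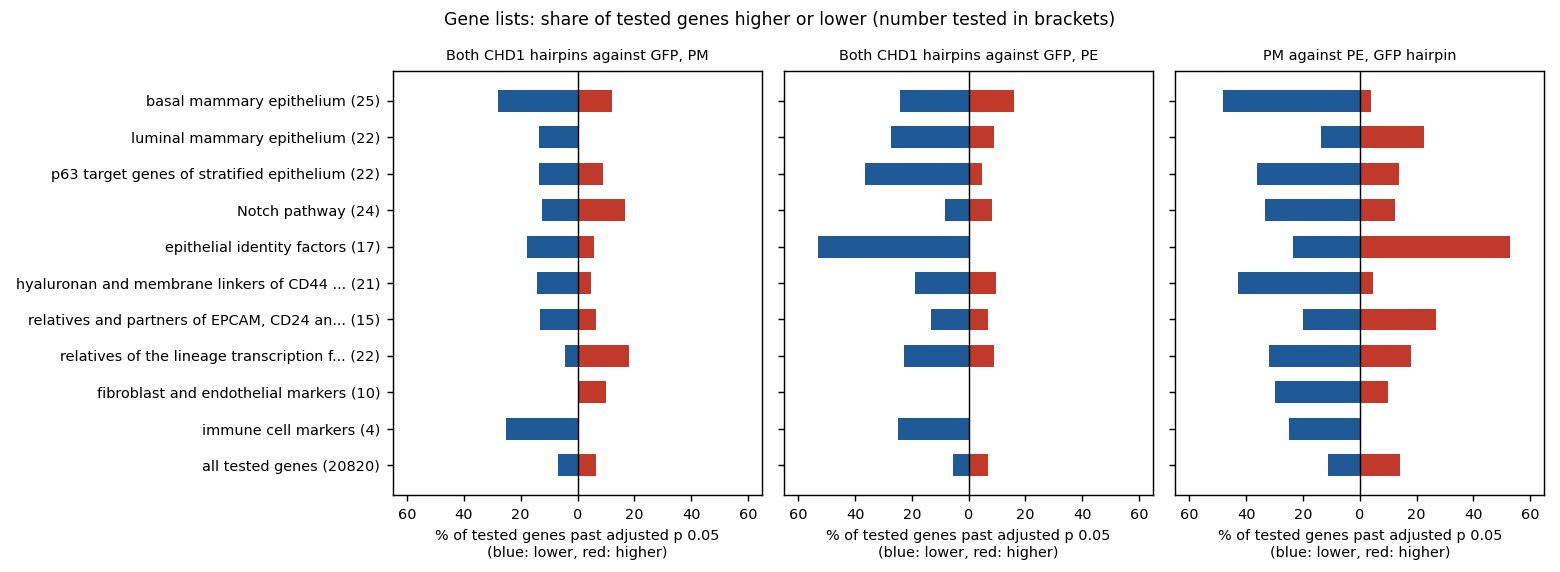
Bars give the percent of tested genes of each list (number tested in brackets, all genes in the last row) that passed an edgeR adjusted p of 0.05, to the left in blue where lower and to the right in red where higher. The panels are both CHD1 hairpins against the GFP hairpin in PM, the same in PE, and PM against PE with the GFP hairpin. In the list of epithelial identity factors 9 of 17 genes were lower in the middle panel and 9 of 17 were higher in the right panel.

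The genes whose log2(CPM + 1) was most like that of each of the 10 were sought among 10237 genes that code for protein and averaged 5 CPM or more. The correlations are over all 24 libraries, share library depth and the 2 lines, and describe likeness only. EPCAM was followed most closely by AP1M2, with a Pearson r of 0.989, then LAD1 with 0.980 and ERVMER34-1 with 0.978. PDPN was followed by PPP2R2C with 0.986, FLI1 with 0.985 and MDFIC with 0.983, and CD44 by SLC44A1 with 0.972, EPAS1 with 0.970 and RAB13 with 0.970. For these 3 genes the lines form separate groups of libraries, so r mainly records the difference between PM and PE. The other 7 had no gene above 0.89. FOXC1 was most like SURF6 with 0.886, EHF like FHIP1A with 0.888, DSG3 with 0.869 and DDR1 with 0.853, MUC1 like LOC124900275 with 0.843, CD24 like SLC25A24 with 0.832, GATA3 like MANBA with 0.813, TP63 like KRT14 with 0.803 and SOX9 like CAMKK1 with 0.788.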

How the data were processed

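Per the submitters' processing notes, the authors used FastQC, Trim Galore 0.4.0, HISAT2 2.2.1 and featureCounts on GRCh38, and deposited whole-number counts per gene. The sources used here give no annotation release, strand setting or treatment of reads with several matches. Libraries were poly(A) selected and directional, per the labels' protocols. All 24 libraries were fitted with 1 mean per group in edgeR 4.0.16 (R 4.3.3; filterByExpr, TMM, robust quasi-likelihood test), with 18 residual degrees of freedom and Benjamini-Hochberg adjustment over 20820 genes within each contrast. Tests were two-sided at 0.05. SEs were approximated as |log2 change| over the root of the F statistic. The procedure was tested on simulated data. Alternatives used DESeq2 1.42.0, limma 3.58.1 voom, other scalings and filters, a replicate block and left-out libraries. Intervals of count ratios cover counting error only. Coordinates and exons are from GENCODE v29 and promoters from RefSeq (GRCh38.p14).

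The 10 genes, the lists and the contrasts were chosen with earlier results of these data known. Named beside the 10 were CHD1, MYC, markers of other cell types, for each list up to 4 genes with the largest changes called under both hairpins of a line and up to 4 called between the lines with the GFP hairpin, and 3 genes most alike for each of the 10.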

Additional observations from a re-analysis of the deposited data

Results flagged for a closer look

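Of the 60 combinations of a gene and a group of 4 libraries, 9 held a library whose gap to its nearest neighbour was over 0.829 of the group's range (Dixon's criterion), where chance gives about 1 in 20. TP63 was at 1.35 CPM in replicate 3 of hairpin A in PE and at 0.216 CPM in replicate 3 of hairpin A in PM. SOX9 was at 8.83 CPM in replicate 4 of hairpin A in PM, and at 7.79 CPM in PE replicate 1 of the GFP hairpin, the shallowest library, where it had 35 counts. CD24 was at 8.31 CPM in replicate 4 of hairpin A in PM and at 10.5 CPM in replicate 4 of the GFP hairpin in PM. CD44 was at 138 CPM in replicate 4 of hairpin A in PM, a library with few genes detected for its depth, 19514, which thus stood apart for 3 of the 10 genes. FOXC1 was at 18.9 CPM and PDPN at 34.9 CPM in PE replicate 2 of the GFP hairpin.

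The effect of hairpin A differed between the lines for 3 genes by the edgeR test of the difference. As the log2 change in PM minus that in PE, the difference was 1.87 for SOX9 (1.08 in PM and −0.80 in PE), 1.65 for EPCAM (0.18 in PM and −1.47 in PE) and −1.61 for MUC1 (−1.73 in PM and −0.12 in PE). The 3 calls held without the 3 libraries that stood apart in depth or genes detected.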

How the results depend on the processing

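Over 33 alternatives no value that was called changed its sign, 25 of 36 calls held in all of them, and 55 of 74 results that missed the threshold stayed so. Counts of the 10 genes called moved as follows, with some smaller moves left out and the replicate block given below. For hairpin A in PE the count of 1 became 3 with library sizes alone, the DESeq2 Wald test or the compared groups alone, and 2 with limma-voom, no filter or a filter of 5 CPM in 4 libraries. For hairpin B in PE the 4 became 2 without the 3 libraries that stood apart, an alternative chosen after seeing the data. Its 2 rises, GATA3 and CD24, were both lost there and with limma-voom, which gave 3 calls, all lower. For hairpin A in PM the 3 became 5 with the compared groups alone, and for hairpin B in PM the 2 became 1 with the compared groups alone, no filter or without those 3 libraries. For hairpin B against hairpin A in PE the 1 became 2 with DESeq2 size factors, library sizes alone, limma-voom, the 5 CPM filter or without those 3 libraries, and 3 with the Wald test or the compared groups alone. For the difference between the lines in the effect of hairpin B the 0 became 1 with the Wald test, limma-voom or the 5 CPM filter. Under both hairpins in PE the 1 became 2 with limma-voom, which added the fall of PDPN. It became 3 with the compared groups alone, which added the fall of PDPN and the rise of CD24. The cause was not tested. TP63 gave no value under the 5 CPM filter, which it did not pass.

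Leaving out each library in turn gave 1 to 2 calls for hairpin A and 2 to 5 for hairpin B in PE, 3 to 4 for hairpin A and 1 to 2 for hairpin B in PM, 3 to 5 for PM against PE under the GFP hairpin, 6 to 9 under hairpin A and 4 to 5 under hairpin B, 1 to 3 for hairpin B against hairpin A in PE and 3 to 6 in PM, 3 in every case for the difference in the effect of hairpin A and 0 to 1 for that of hairpin B, 1 to 2 under both hairpins in PE and 0 to 1 in PM. Further results that missed the threshold passed without 1 library, and some of them under other alternatives too: FOXC1 between the lines with hairpin B without replicate 4 of hairpin B in PE or 1 in PM (adjusted p = 0.031 and 0.0421), TP63 there without replicate 2 of hairpin B in either line or 3 of hairpin A in PM (lowest 0.038), CD24 between the lines with hairpin A without PM replicate 4 of hairpin A or of the GFP hairpin (0.0273 and 0.0367), EHF and EPCAM for hairpin B against A in PE without replicate 4 of hairpin B (0.0479 and 0.0379), and SOX9 for the same in PM without replicate 4 of hairpin B (0.0342).

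Libraries were not treated as paired by replicate number in the main fit, although the values point to a shared spread. Of 60 pairs of same-numbered libraries, 41 had a correlation of deviations over 0.1 (0.00258 to 0.319), and 22 of 24 libraries correlated best with their own number. The running numbers in the column headers also follow the replicate number. The labels do not say what libraries of one number share. With the replicate block hairpin A in PE gave 2 calls, hairpin B in PE 5, with PDPN added, and hairpin B in PM 3. PM against PE with hairpin B gave 5, with FOXC1 added (adjusted p = 0.0484), and hairpin B against hairpin A in PE 2. The difference in the effect of hairpin B gave 1, and both hairpins in PM 1, MUC1. The change of MUC1 with hairpin B was then −0.57 (adjusted p = 0.0389). Over all genes the block raised the number of calls in every contrast. For hairpin A in PE it went from 4208 to 5013, and for the difference in the effect of hairpin A from 1386 to 2184. Depth limits TP63, with at most 104 counts in a group, and PDPN in PM.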
